A study of Mus musculus with 34 samples.

Results

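Distal CTCF sites that carried neither cohesin nor acetylated chromatin were examined in mouse dendritic cells. They were the CTCF peaks of unstimulated control cells (WT) that had no overlapping CTCF peak in CTCF-depleted cells (KO), lay outside every annotated promoter (2.5 kb to either side of a gene's start), and shared no base with a WT peak of the cohesin subunit SMC1 or of H3K27ac, a histone mark of active enhancers and promoters. Of 60537 WT CTCF peaks, 46166 had no KO CTCF overlap, 37857 of these were distal, 22004 of these had no SMC1 peak, and 21222 also had no H3K27ac peak. These 21222 members made up 35.1% of all WT CTCF peaks and 56.1% of the distal peaks that were absent in KO. The remaining distal peaks absent in KO served for comparison. They comprised 13732 with SMC1 and no H3K27ac, called CTCF-cohesin sites here, and 2903 with H3K27ac, called acetylated sites, of which 2121 also had SMC1.

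The data were 30 ChIP-seq peak lists from bone marrow of C57BL/6 mice, labelled as 8 weeks old, grown into dendritic cells (BMDCs) for 6 days with the cytokine GM-CSF and selected for CD11c. WT cells carried CreER and KO cells CreER;CTCF fl/fl, and both received 4-OH tamoxifen on day 1 of culture, so that Cre and the drug were shared by all groups. WTLPS and KOLPS cells were also given LPS, a component of the bacterial cell wall, at 100 ng/ml for 3 h. Lists for CTCF, SMC1, H3K27ac, H3K27me3, H3K4me1, H3K4me3 and the NF-kB subunit p65 covered all 4 conditions, and STAT5 lists, made after 15 min of renewed GM-CSF, covered WT and KO. CreER was expressed from the Rosa26 locus, which is active in most cell types, and the allele was deleted in culture, so KO cells were a depleted population rather than cells of a null strain. H3K4me3 peaks lay at the promoters of all 8 dendritic or myeloid marker genes looked up (Itgax, Itgam, Csf2ra, Flt3, H2-Ab1, Cd74, Spi1 and Cd86) in all 4 conditions and at none of the markers of other lineages Cd3e, Gata1, Ly6g, Alb and Krt5. Each antibody and condition had 1 list, so no difference between conditions could be tested against replicates. Every interval given is a 95% interval for counting error over the sites of single lists.

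CTCF is a zinc finger protein that binds a long, asymmetric DNA motif. Cohesin, a ring-shaped complex that contains SMC1, extrudes chromatin loops and halts at CTCF sites that face it, so strong CTCF sites are usually also cohesin sites. In rodents, many CTCF motifs lie within short interspersed repeats. H3K27me3 is laid down by Polycomb repressive complexes and marks silent developmental genes, and H3K4me1 marks enhancers, active or poised.

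Among the strongest members were sites with the core of the CTCF motif within 50 bases of the summit and sites without it there. Each sequence is a CTCF summit with 50 bases to either side, from the plus strand of the GRCm38 (mm10) RefSeq assembly. Capitals mark the core of the CTCF motif, which was searched on both strands as CCA, 2 free bases, AG, 2 free bases and GGC. The first 4 lines are the strongest members that held this core, the Mb line is the strongest core-holding member with H3K27me3 in WT, and the Actr2 line is the strongest core-holding member with SMC1 in KO. In the sites nearest Akap14 and in Mb and Actr2, the core lay on the minus strand and reads as its reverse complement.
Intron of Gm14243, chr2:161185266-161185366: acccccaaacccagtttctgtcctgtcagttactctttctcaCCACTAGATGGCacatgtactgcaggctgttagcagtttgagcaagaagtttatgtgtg
Intron of Rbfox1, chr16:6503725-6503825: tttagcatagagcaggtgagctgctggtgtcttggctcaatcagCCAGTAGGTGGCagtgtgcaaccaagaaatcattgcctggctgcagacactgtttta
Intron of Nrxn3, chr12:89505297-89505397: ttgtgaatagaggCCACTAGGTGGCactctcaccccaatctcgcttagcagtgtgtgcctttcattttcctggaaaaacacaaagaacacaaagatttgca
Outside genes, nearest Akap14, chrX:37173140-37173240: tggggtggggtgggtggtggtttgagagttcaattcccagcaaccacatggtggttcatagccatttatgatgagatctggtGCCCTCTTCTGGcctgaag
Intron of Mb, chr15:77029504-77029604: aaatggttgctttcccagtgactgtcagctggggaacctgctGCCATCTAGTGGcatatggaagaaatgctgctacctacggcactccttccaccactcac
Intron of Actr2, chr11:20067690-20067790: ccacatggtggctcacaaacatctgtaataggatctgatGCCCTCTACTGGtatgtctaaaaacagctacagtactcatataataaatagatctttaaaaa
The following members held no complete core within 50 bases of the summit. The first pair were the strongest of all members, and the last was the strongest member that carried an SMC1 peak in KO.
Intron of Plcg2, chr8:117626300-117626400: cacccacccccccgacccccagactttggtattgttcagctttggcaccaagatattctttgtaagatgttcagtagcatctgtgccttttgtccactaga
Outside genes, nearest Cobl, chr11:12559439-12559539: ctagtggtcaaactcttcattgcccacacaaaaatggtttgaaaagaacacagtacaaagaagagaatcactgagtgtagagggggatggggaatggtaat
Outside genes, nearest Gm17019, chr5:15021415-15021515: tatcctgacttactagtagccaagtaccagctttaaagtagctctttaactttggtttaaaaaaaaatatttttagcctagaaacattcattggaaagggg
The middle of the core lay 0 to 2 bases from the summit in the Gm14243, Rbfox1 and Mb sites, 5 bases from it in Actr2, and 31 and 38 bases from it in the Nrxn3 and Akap14 sites. The window nearest Akap14 was 96.0% soft-masked repeat sequence and the Actr2 window 100%, whereas the Rbfox1, Nrxn3, Mb and Plcg2 windows held no masked base. The Plcg2 window ends, and the window nearest Cobl begins, with bases that match part of the core. A core that crossed the edge of a window was not counted, so these sites may still hold one.

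Members were mostly weak and narrow CTCF peaks. These WT CTCF values come from the list that chose the members and are given as a description. Their fold enrichment, the fragment pileup at the summit over the local background, had a median of 4.64 (5th to 95th percentile 3.80 to 9.57), beside 8.65 at CTCF-cohesin sites and 5.91 at acetylated sites. The median width was 434 bp (range 174 to 4505), beside 737 and 510 bp. The median -log10 p was 10.2, beside 29.3 and 15.2, and 49.1% of members lay below 10. Fold and p-value together gave back the whole number of fragments at each summit, with a median of 22 at members, 43 at CTCF-cohesin sites and 28 at acetylated sites. All WT CTCF peaks were cut by q-value into 5 strength groups of equal size, with tied peaks split by genome order. Members made up 67.5%, 58.3%, 38.0% and 10.9% of the groups from the weakest up, and 0.677% of the strongest, which held 82 members. In the middle group the median width was 618 bp at members and 614.5 bp at CTCF-cohesin sites, and in the strongest members were the wider, with 1792 against 1409 bp.

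The limits of the rule left members close to what it excluded. The lowest -log10 p of a member, 7.01, was the lowest of the list itself, and members in Shroom2 and Bmx and nearest Usp51, among the weakest by q-value, had a fold of 3.80 from 17 fragments. The members closest to a WT SMC1 peak, in Rere and Gm28635 and nearest Otulinl, lay 16, 40 and 40 bp from it, and the peaks just left out, in Eps8l2 and nearest Ndc1 and Ppp2r5c, shared 1, 1 and 11 bp with one. The members closest to a WT H3K27ac peak lay 4, 10 and 11 bp away, and those closest to a KO CTCF peak 5, 57 and 64 bp away. Members nearest Gm25792, Slc25a23 and Tmem174 lay 0, 0 and 1 bp outside a promoter, whereas peaks nearest Dennd6b, Fv1 and Mir7020 shared 2, 2 and 3 bp with a promoter and were left out. Distances to these lists follow from the rule in part and are a description: the nearest WT SMC1 peak was a median of 6291 bp away, with 15.8% of members within 1 kb and 45.8% within 5 kb, and the nearest WT H3K27ac peak 26526 bp away.

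The strongest member lay in an intron of Plcg2, which encodes a phospholipase of immune receptor signalling, at chr8:117625384-117626697. Its fold was 27.4 from 129 fragments, and its nearest WT SMC1 peak was 18801 bp away. The next strongest lay outside genes at chr11:12558475-12560285, 94532 bp from the start of Cobl, an actin nucleator, with a fold of 27.02 and no WT SMC1 peak within 244802 bp. Of the 10 strongest members, all 10 had a CTCF peak in WTLPS, 2 had an SMC1 peak in WTLPS and 0 overlapped H3K27me3 or H3K4me1. The complete core motif lay within 50 bp of the summit in 1 of them. A run of 3 of them lay within 1 Mb on chromosome 8, nearest 4930467E23Rik, Gm15319 and Gm21119, with folds of 9.70, 15.2 and 7.62 from 183, 142 and 232 fragments. Folds this low from so many fragments mean a high local background at these positions.

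Most members were CTCF peaks again after LPS, and almost none after CTCF depletion and LPS. In WTLPS, 13182 members (62.1%, 61.5 to 62.8) overlapped a CTCF peak, beside 90.5% of CTCF-cohesin sites, 73.3% of acetylated sites and 79.4% of all WT CTCF peaks. The difference from CTCF-cohesin sites was -28.4 percentage points (-29.2 to -27.6), and members were the lower class on 19 of 19 autosomes. This share followed the strength of the WT peak. From the weakest to the strongest group it was 37.0%, 63.9%, 92.5%, 99.9% and 100% at members and 47.9%, 72.2%, 94.9%, 99.9% and 100% at CTCF-cohesin sites, and the intervals of the classes were apart in the 3 weaker groups. The WTLPS peaks found at members had a median fold of 5.29, and their summits lay a median of 65 bp from the WT summit, with 66.9% within 100 bp. At CTCF-cohesin sites these values were 8.16, 40 bp and 84.4%.

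In KOLPS, 53 members (0.250%) overlapped a CTCF peak, beside 15.6% of all WT CTCF peaks. The latter share contains the peaks that persisted in KO, which the rule removed, so it is not a like comparison. CTCF-cohesin sites, chosen by the same absence in KO, had 1.86%. The KOLPS peaks at members were weak, with a median fold of 4.45 and 81.1% of them below a -log10 p of 10. The background of the CTCF lists, as the fragments expected at a summit, was 3.74 in WT and 2.95 in KO, and with LPS it was 3.53 and 2.82. Its part in the loss of these weak peaks was not tested.

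**Figure D1:**
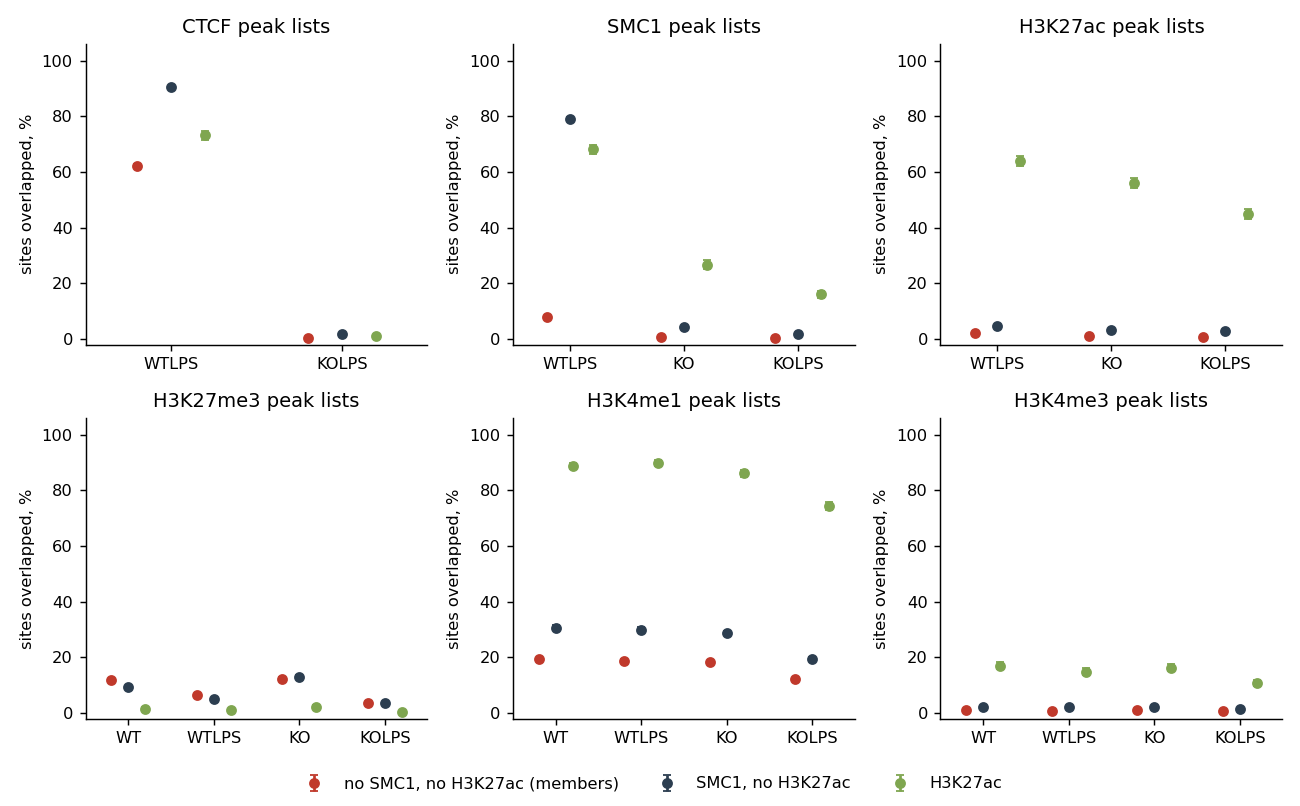
Share of sites (y axis, percent) that overlapped a peak of each antibody in the conditions on the x axis, for members (red), CTCF-cohesin sites (dark blue) and acetylated sites (green), with 95% Wilson intervals for counting error that are mostly smaller than the points. The SMC1 panel shows members at 7.78% in WTLPS beside 79.2% of CTCF-cohesin sites, and both below 5% in KO.

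Cohesin was detected at a minority of members after LPS and at very few after CTCF depletion. SMC1 peaks in WTLPS overlapped 1651 members (7.78%, 7.43 to 8.15), beside 79.2% of CTCF-cohesin sites, 68.2% of acetylated sites and 51.1% of all WT CTCF peaks. In KO the number was 149 (0.702%, 0.598 to 0.824), beside 4.22%, 26.5% and 9.38%, and in KOLPS 47 (0.221%, 0.167 to 0.294), beside 1.92%, 16.0% and 5.69%. The difference between members and CTCF-cohesin sites was -71.4 percentage points (-72.2 to -70.6) in WTLPS and -3.51 (-3.88 to -3.17) in KO, with members lower on 19 of 19 autosomes each time. CTCF-cohesin sites were chosen for WT SMC1 and members for its absence, so the classes were unequal in cohesin by choice. SMC1 peaks covered 1.3% of the genome in WTLPS, 0.546% in KO and 0.275% in KOLPS. Because 1 shared base counted as overlap, random overlap would exceed this coverage. Whether the members' shares differed from random overlap was not tested. Altogether 1783 members (8.40%) had SMC1 in at least 1 of the 3 later lists, 38 in both WTLPS and KO, 103 in KO alone and 10 in all 3.

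The SMC1 share in WTLPS also followed CTCF strength. It was 4.24%, 7.15%, 11.9%, 17.8% and 23.2% of members from the weakest to the strongest group, beside 48.4%, 60.1%, 75.5%, 90.5% and 96.0% of CTCF-cohesin sites. Members with SMC1 in WTLPS were wider (median 530 against 427 bp), had CTCF in WTLPS more often (81.8% against 60.5%), and more often held the core motif (30.4% against 21.4%) and H3K4me1 in WT (30.4% against 18.3%) than members without it. The SMC1 peaks concerned were weak, with a median -log10 p of 9.23 against 15.8 over the whole list and 67.4% below 10 against 28.0%, but 72.1% of their summits lay within 100 bp of the CTCF summit. The strongest such members lay in introns of the noncoding gene Gm30228, of Gm14243 and of Rbfox1, a neuronal splicing regulator, and in exons of Cntn1, a neural adhesion molecule, and E130311K13Rik. Their CTCF folds were 23.0, 22.6, 22.4, 19.5 and 21.1 and their WTLPS SMC1 folds 5.03, 3.84, 3.55, 3.30 and 4.14.

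The members with SMC1 in KO, 0.702% of all, differed from the others in sequence. The list covered 0.546% of the genome, and whether the members' share exceeded random overlap was not tested. Only 12 of the 149 (8.05%, 4.67 to 13.5) held the core motif, against 22.2% of the other members, their median GC content was 26.7% against 37.6%, and 39.6% (32.1 to 47.6) had H3K4me1 in WT against 19.1%. At 25.5% of them (19.2 to 33.1) SMC1 was also present in WTLPS. Their SMC1 peaks had a median -log10 p of 8.55, with 81.9% below 10, beside 46.4% of the whole KO list. The strongest lay outside genes near Gm17019 at chr5:15021308-15021603, with a CTCF fold of 12 and SMC1 in all 3 later lists. The next lay in Actr2, which encodes a subunit of the actin-nucleating Arp complex, with a CTCF fold of 10.98 and H3K4me1 in all 4 conditions. A member in Usp37, a deubiquitinase gene, had a fold of 8.65 and lay 592 bp from a WT H3K27ac peak. Among members with a GC content of 55% or more, 0 of 1074 had SMC1 in KO, beside 2.57% of the 2025 members under 25%.

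**Figure D2:**
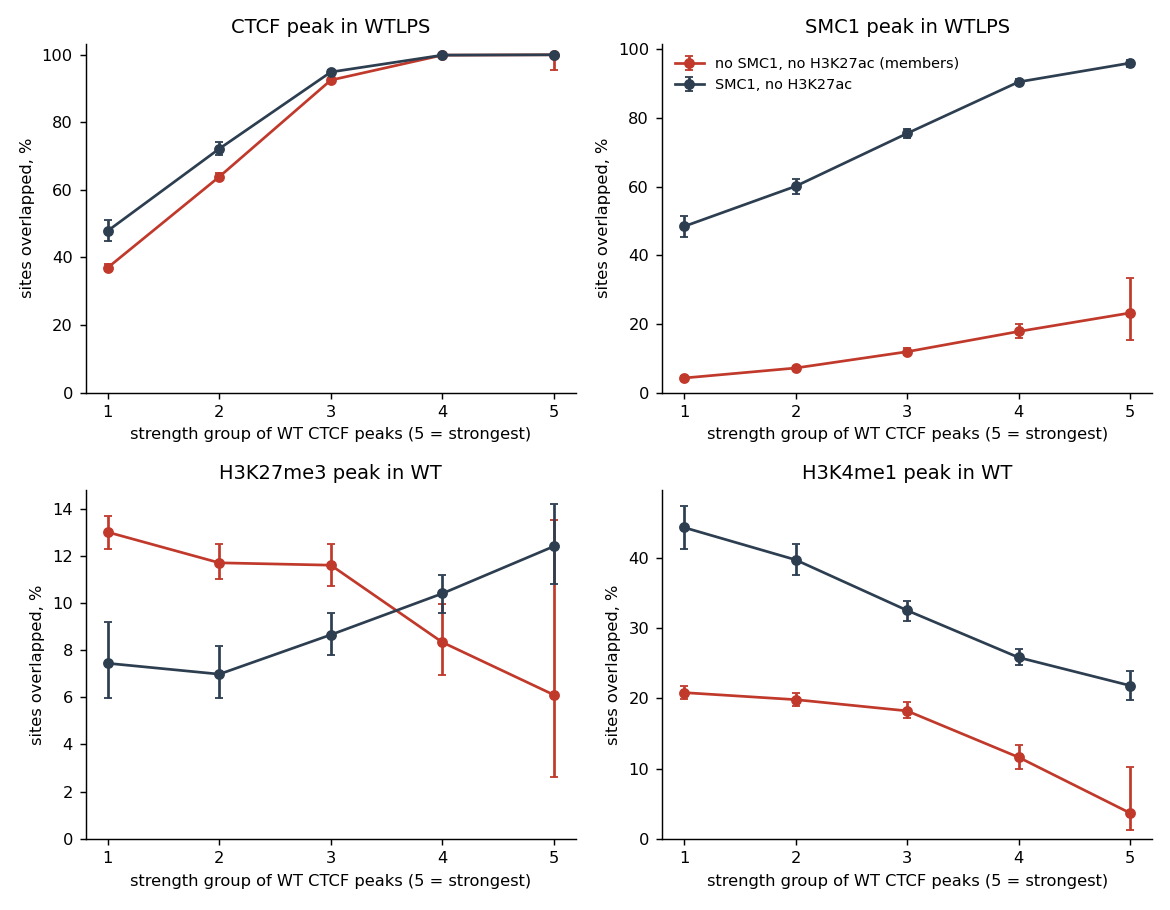
Share of sites (y axis, percent) overlapped by 4 peak lists, for members (red) and CTCF-cohesin sites (dark blue) in each of 5 strength groups of WT CTCF peaks (x axis, 5 strongest), with 95% Wilson intervals. Members had fewer SMC1 peaks in WTLPS and fewer H3K4me1 peaks in every group, and the order for H3K27me3 was reversed in the 2 strongest groups, with overlapping intervals.

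Members lay in introns and between genes, and closer to other CTCF peaks than CTCF-cohesin sites did. They fell outside genes in 8426 cases (39.7%, 39.0 to 40.4), in introns in 10664 (50.2%) and in exons in the other 2132, where CTCF-cohesin sites had 36.7% outside genes, 48.3% in introns and 15.0% in exons. The exon share differed from that of CTCF-cohesin sites by -4.95 percentage points (-5.67 to -4.23) and was lower on 19 of 19 autosomes. At 10% it was close to the 9.85% of acetylated sites and the 10.9% of all WT CTCF peaks. The nearest gene start was a median of 15.3 kb away, and 15.8 kb from CTCF-cohesin sites. The next WT CTCF summit was a median of 3330.5 bp from a member against 6982.5 bp from a CTCF-cohesin site, and 57.9% against 42.0% had one within 5 kb. On autosomes there were 6.42 (chromosome 3) to 13.2 (chromosome 11) members per Mb, and 50.3 to 59.1% of the distal peaks absent in KO were members. The X chromosome had 2.90 per Mb, and 55.4% of its distal peaks absent in KO were members.

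**Figure D3:**
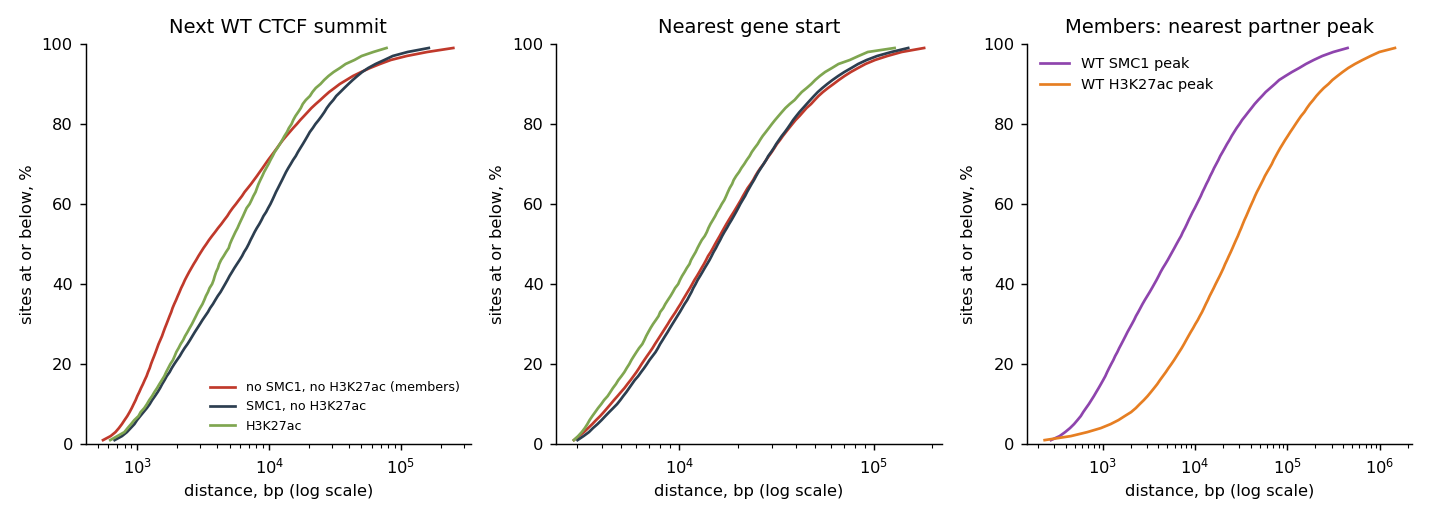
Cumulative share of sites (y axis, percent) against distance in bp on a log axis, to the next WT CTCF summit (left), to the nearest gene start (middle) and, for members, to the nearest WT SMC1 and H3K27ac peak (right). The red curve of members runs left of both other classes over most of the left panel, where 57.9% of members and 42.0% of CTCF-cohesin sites had a neighbour within 5 kb.

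Genes held members at a higher density than the space between them. Protein-coding gene bodies, 38.2% of the genome, held 11686 members (55.1%), or 11.2 per Mb against 5.66 outside, and CTCF-cohesin sites had a similar 57.8% inside. Members lay in 5904 protein-coding genes, 3178 of which held 1 and 80 of which held 8 or more. Leaving aside Gm20388, a read-through model of 4435 kb that held 36, the highest count was 27 in Fry, which encodes a scaffold protein of 379 kb gene length, with 5 CTCF-cohesin sites. Usp34, a deubiquitinase gene, held 18 over 184 kb and Tlk2, a chromatin kinase gene, 13 over 105 kb, and neither held a CTCF-cohesin or acetylated site. Long neural genes reached like counts over much longer bodies, with 14 members each in Gpc5 and Nrxn3 (0.977 and 0.868 per 100 kb) and 13 each in Ank2 and Kalrn. Dnah8, a dynein gene, also held 13.

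Some windows of the genome held many members. Like counts were not made for the other classes, and the density of all WT CTCF peaks also varied, from 18.7 (chromosome 3) to 37.3 (chromosome 11) per Mb on autosomes. Of 27268 windows of 100 kb, 10582 held a member, and 676 with 5 or more held 3943 members (18.6%). The densest, at Bptf and Nol11 on chromosome 11 (chr11:107100001-107200000), held 15 members and 1 CTCF-cohesin site among 23 WT CTCF peaks. Its members had folds of 3.79 to 15.4, 11 of them had a CTCF peak in WTLPS and 7 the core motif. Windows at Usp34, at Psmd9 and Wdr66, and at Fry held 12 each. H3K27me3 was absent from the members of 13 of the 14 windows with 10 or more, and the exception was Tacc1, with 4 of 11.

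The core motif lay near the summit at a minority of members. It lay within 50 bp of the summit in 4686 (22.1%, 21.5 to 22.6), beside 31.8% of CTCF-cohesin sites, 26.0% of acetylated sites and 27.1% of all WT CTCF peaks, and in 1.32% of windows of the same length 1 kb to either side of members. The difference from CTCF-cohesin sites was -9.73 percentage points (-10.7 to -8.77) and had the same sign on 19 of 19 autosomes. With 1 mismatch allowed the shares were 35.2% and 54.7%, and by a matrix score 21.8% and 32.8%. Where found, the middle of the core lay a median of 32 bp from the summit at members and 30 bp at CTCF-cohesin sites. Cores farther out than the window were not counted, so the share of peaks with a core anywhere in them was not tested. The core was on the plus strand in 49.5% of members that held it. It lay in soft-masked repeat sequence in 3941 of the 4686 (84.1%, 83.0 to 85.1). This share was 86% at acetylated sites, 71.6% at CTCF-cohesin sites and 64.1% over all WT CTCF peaks. The type of repeat was not resolved here.

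Members without the core had AT-rich summits. The median GC content of the summit with 50 bases to either side was 36.6% without and 43.6% with the core, and 37.6% over all members. In the flank 1 kb to the side of lower coordinates, the only one measured for GC, it was 44.6%. At CTCF-cohesin sites summit and flank both had 44.6%. Among the 2025 members under 25% GC, 1.83% held the core, and the share was 19.3%, 20.8%, 33.6% and 27.7% in the bins up to 35%, 45%, 55% and above. The core also went with the other readouts. Members that held it had CTCF in WTLPS in 68.7% of cases against 60.2%, SMC1 in WTLPS in 10.7% against 6.95%, H3K4me1 in 23.9% against 18% and H3K27me3 in 7.21% against 13.3%. SMC1 in KO went the other way, with 0.256% against 0.828%. Within strength groups, from weakest to strongest, the core share of members was 16.3%, 23.9%, 27.9%, 27.8% and 25.6%, below that of CTCF-cohesin sites in each group, although the strongest group had only 82 members.

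**Figure D4:**
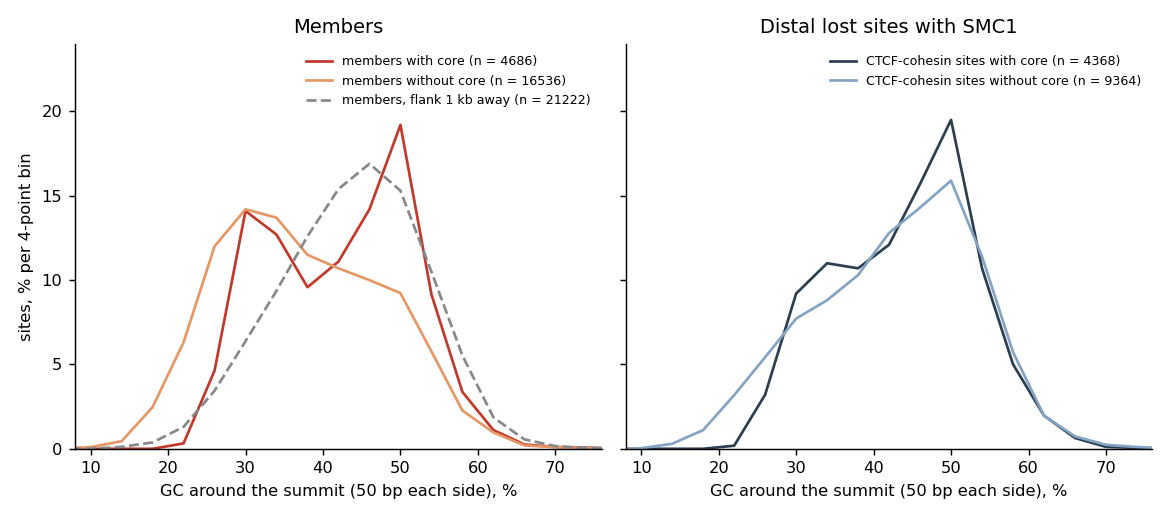
Distribution of the GC content of the summit with 50 bases to either side (x axis, percent) as the share of sites per 4-point bin (y axis, percent), for members with the core, without it and in the flank 1 kb away (left), and for CTCF-cohesin sites with and without the core (right). Members without the core are shifted to low GC (median 36.6%), and members with the core show a peak near 30% and a higher one near 50%.

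Members beside a CTCF peak that persisted in KO differed from the rest. The nearest such peak was a median of 23247 bp away, and 3552 members (16.7%) had one within 1.5 kb. Of these, 7.21% (6.40 to 8.10) held the core motif and 21.1% (19.8 to 22.5) overlapped H3K27me3 in WT. Beyond 5 kb, where 15650 members lay, the shares were 25.3% (24.7 to 26.0) and 9.26%. The core share climbed from 4.84% within 0.5 kb to 29.6% at 5 to 20 kb and was 18% beyond 100 kb. SMC1 in WTLPS was at 3.86% of members within 1.5 kb and 8.88% beyond 5 kb. CTCF in WTLPS was found at 62.4% and 62.5%.

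**Figure D5:**
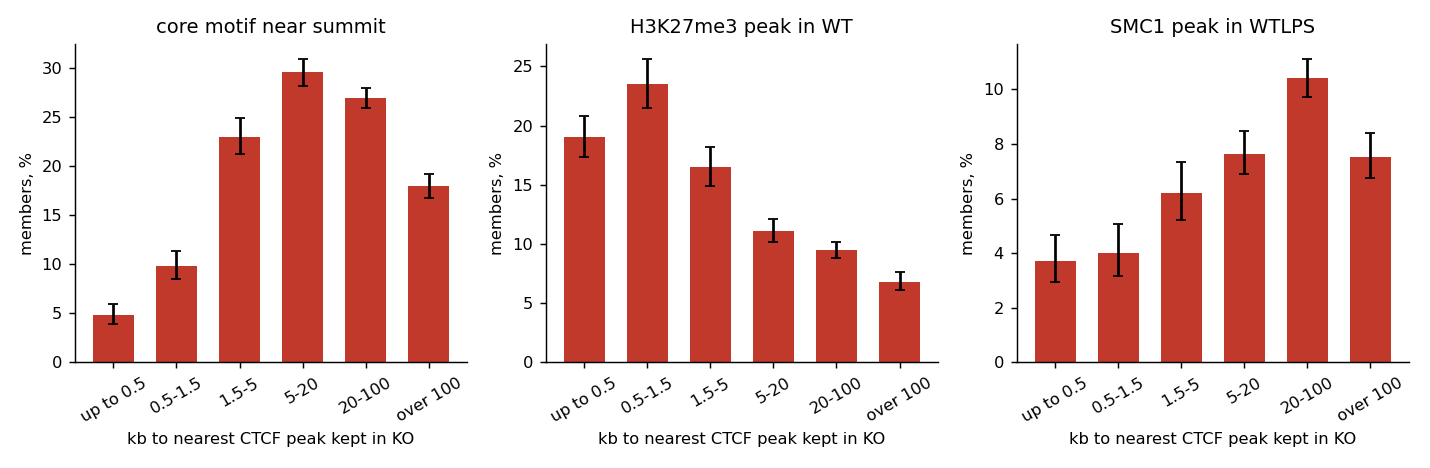
Share of members (y axis, percent) with the core motif, with H3K27me3 in WT and with SMC1 in WTLPS, by distance in kb to the nearest WT CTCF peak that persisted in KO (x axis), with 95% Wilson intervals. The core share is 4.84% within 0.5 kb and 29.6% at 5 to 20 kb, while H3K27me3 is highest at 0.5 to 1.5 kb, with 23.5%.

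H3K27me3 overlapped members at a share close to that of all WT CTCF peaks. The number was 2532 in WT (11.9%, 11.5 to 12.4), beside 9.39% of CTCF-cohesin sites, 1.52% of acetylated sites and 11.6% of all WT CTCF peaks, while the mark covered 4.29% of the genome. The difference from CTCF-cohesin sites was 2.54 percentage points (1.88 to 3.19), or 5.08 (4.55 to 5.61) when only the summit with 100 bases to either side was looked up, and members were lower on 1 of 19 autosomes. It depended on strength, with 13.0%, 11.7%, 11.6%, 8.33% and 6.10% of members against 7.44%, 6.98%, 8.65%, 10.4% and 12.4% of CTCF-cohesin sites from the weakest to the strongest group, so the order turned in the upper 2, where the intervals of the classes overlapped. Looked up at the summit in this narrower way, the second strongest group had 3.86% of members against 3.92%. No interval of the difference is given within strength groups, and overlap of separate intervals does not show equal shares. In WTLPS 1413 members (6.66%) overlapped the mark, beside 6.64% of all peaks, in KO 2627 (12.4%), beside 14.8%, and in KOLPS 774 (3.65%), beside 4.46%.

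Nearly equal numbers of members carried H3K27me3 in WT and KO. It was in the KO list alone at 1039 members and in the WT list alone at 944, a net 0.448 percentage points (0.0364 to 0.859). At CTCF-cohesin sites the net was 3.68 points (3.17 to 4.20), with 920 in KO alone and 414 in WT alone, and their share in KO, 13.1%, was the only one of the 4 that lay above that of members. The difference between the classes in KO was -0.700 points (-1.42 to 0.0131). Of the members with the mark in WT, 62.7% kept it in KO, and 422 (1.99% of all) had it in all 4 lists. The WTLPS share was lower by a net -5.27 points (-5.65 to -4.90). The WTLPS and KOLPS lists were also shorter, with 65880 and 26960 peaks against 96475 in WT and 95080 in KO, and began at a higher -log10 p. At the common lowest -log10 p of 3.47 the members' shares were 7.57% in WT, 6.41% after LPS, 8.21% after depletion and 3.65% after both. CTCF-cohesin sites had 5.88% in WT and 8.08% in KO there, so at this threshold they were not above the members in KO.

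The members with H3K27me3 lay farther from acetylation than the other members. The peaks had a median width of 1146 bp, beside 1110 bp for those at CTCF-cohesin sites, 1001 bp at acetylated sites and 676 bp over the whole WT list. The sites lay a median of 40097 bp from WT H3K27ac against 24506.5 bp for the rest. They lay closer to WT SMC1 peaks, with 2480.5 against 7106.5 bp, and 13.3% held the core against 23.3%. The strongest were in introns of Syt16 and A930017M01Rik, in an exon of Adamts9, in an intron of Tacc1 and outside genes near Adamts2. Their CTCF folds were 18.4, 18.2, 14.6, 15.4 and 17.1, and the Tacc1 site had the mark in all 4 conditions. Syt16 encodes a synaptotagmin, Adamts9 and Adamts2 secreted metalloproteinases, and Tacc1 a centrosomal coiled-coil protein.

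The Hox clusters, which order the body axis and are standard Polycomb targets, carried H3K27me3 at most of their members. Within a Hox gene or 100 kb of its start lay 17 members, 15 of which (88.2%) overlapped the mark in WT, beside 11.9% of all members. The Hoxb cluster was chosen for description after its values were seen. Over 174 kb (chr11:96194316-96368256) it held 14 WT CTCF peaks. The 6 members had folds of 4.85 to 8.65, and all 6 overlapped H3K27me3 in WT and CTCF in WTLPS. They lay among 4 peaks that persisted in KO (folds 9.29 to 44.96) and 3 CTCF-cohesin sites (11.61 to 13.09), and the remaining peak lay in a promoter. The mark was also at all 4 persisting peaks, at 2 of the 3 CTCF-cohesin sites and at the promoter peak, and all 14 peaks had CTCF in WTLPS. A member at chr11:96241275-96241884 with a fold of 7.18 lay 321 bp from the strongest persisting peak. H19, an imprinted noncoding RNA gene, showed the same arrangement and was likewise picked after its values were seen, with a member of fold 8.24 at chr7:142581442-142582174, 309 bp from a persisting peak of fold 16.7, and H3K27me3 at both.

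H3K4me1 was the most frequent mark of members but less frequent than in the other classes. It overlapped 4092 in WT (19.3%, 18.8 to 19.8), beside 30.7% of CTCF-cohesin sites, 88.8% of acetylated sites and 33.0% of all WT CTCF peaks, and covered 9.50% of the genome. In WTLPS it overlapped 3987 (18.8%, beside 32.9% of all peaks), in KO 3887 (18.3%, beside 32.3%) and in KOLPS 2575 (12.1%, beside 23.2%). The difference from CTCF-cohesin sites was -11.4 percentage points (-12.4 to -10.5) in WT, and members were the lower class on 19 of 19 autosomes in all 4 conditions and in every strength group. From the weakest to the strongest group the share was 20.8%, 19.8%, 18.2%, 11.6% and 3.66% of members and 44.3%, 39.7%, 32.5%, 25.8% and 21.8% of CTCF-cohesin sites. At the same members KO minus WT was -0.966 points (-1.37 to -0.558), with 876 in KO alone and 1081 in WT alone, and KOLPS minus WTLPS was -6.65 (-7.07 to -6.24). At the lowest -log10 p that the 4 H3K4me1 lists had in common, the shares were 17.8% in WT and 17.9% in KO, so the decrease in KO was not seen there, and 18.1% in WTLPS and 12.1% in KOLPS. Of the members marked in WT, 73.6% were marked in KO, and 1940 (9.14% of all) were marked in all 4 conditions.

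Members with H3K4me1 lay nearer to active chromatin. Their median distance to WT H3K27ac was 5572 bp against 35808 bp without the mark, 12.3% against 6.71% had SMC1 in WTLPS, and 8.28% against 0.747% had H3K27ac in WTLPS. The strongest lay in an exon of Cops7b, in introns of Nedd4 and Vac14, in an exon of Dhx8 and outside genes near Myzap, with CTCF folds of 20.3, 17.9, 16.1, 15.6 and 16.7. Cops7b encodes a COP9 signalosome subunit and its site had SMC1 in WTLPS, Nedd4 encodes a ubiquitin ligase, Vac14 a scaffold of phosphoinositide synthesis and Dhx8 an RNA helicase. Both marks were rarely found together, with 282 members (1.33%) carrying both, 2250 (10.6%) H3K27me3 alone, 3810 (18%) H3K4me1 alone and 14880 (70.1%) neither. Among CTCF-cohesin sites 61.6% had neither. The peak was seen in the WT CTCF list and no other list at 4503 members (21.2%), and in the WT and WTLPS CTCF lists alone at 7011 (33.0%).

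Acetylation was uncommon at members in the conditions that did not choose them. H3K27ac overlapped 467 in WTLPS (2.20%, 2.01 to 2.41, beside 11.9% of all WT CTCF peaks), 0.947% of them in KO (beside 10.4%) and 186 in KOLPS (0.876%, beside 8.67%). CTCF-cohesin sites, also chosen without WT H3K27ac, had 4.72%, 3.35% and 2.99%, above the members each time and on 19 of 19 autosomes. Members acetylated in WTLPS lay close to WT acetylation already, with a median of 1501 bp against 27612 bp, and 72.6% had H3K4me1 in WT against 18.1%. The strongest included sites in introns of Nedd4, of Rab1a, a vesicle traffic GTPase gene, and of Eif3a, a translation initiation factor gene, and near Ubl4b, with WTLPS H3K27ac folds of 4.10, 4.55, 3.64 and 3.64. H3K4me3, the promoter mark, overlapped 239 members in WT (1.13%) and 262 in KO (1.23%). CTCF-cohesin sites, also outside promoters, had 2.26% and 2.01%. The 11.6% and 11.4% of all WT CTCF peaks include promoter peaks, which the rule removed, so they are not a like comparison.

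Transcription factors of the LPS and GM-CSF response were nearly absent. p65 peaks overlapped 7 members in WTLPS (0.0330%, 0.0160 to 0.0681), beside 0.699% of all WT CTCF peaks and 0.408% of CTCF-cohesin sites, and 0 members in WT, KO and KOLPS. Those lists were shorter and overlapped only 0.109%, 0.0743% and 0.259% of all WT CTCF peaks. The strongest of the 7 lay near Cox7a2l, near Csf3r, the receptor gene of G-CSF, near Clrn3, and in introns of Abca3 and Ppp2r2a, with p65 folds of 7.55, 7.01, 8.08, 9.07 and 7.01. All of these but the Abca3 site had SMC1 in WTLPS. STAT5, the transcription factor downstream of GM-CSF, overlapped 30 members in WT (0.141%, beside 1.28%) and 38 in KO (0.179%, beside 1.08%), and the Csf3r site was among both.

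Around genes of the dendritic cell response members were a smaller part of the distal peaks absent in KO. Within the gene or 100 kb of its start lay 44 members for the cytokines and chemokines, 59 for the Toll-like receptor and NF-kB pathway, and 42 for myeloid transcription factors. These were 39.6%, 41.5% and 38.5% of the distal peaks absent in KO at those genes, beside 56.1% in the whole genome. The rule removed sites with WT H3K27ac or SMC1, so these shares depend on it and are a description. Acetylated sites at those genes numbered 27, 25 and 18, and CTCF-cohesin sites 40, 58 and 49. H3K4me1 in WT marked 23 of the 44 (52.3%), 16 of the 59 (27.1%) and 14 of the 42 (33.3%), beside 19.3% of all members. SMC1 in WTLPS was at 8 of the 44, 4 of the 59 and 11 of the 42, beside 1651 of all 21222 members (7.78%). Il23a, which encodes a subunit of interleukin 23, had 7 members, the nearest 29.0 kb from its start with a fold of 10.3 and SMC1 in WTLPS. The chemokine genes Cxcl10 and Cxcl9 shared the same nearest member, 38.0 and 58.8 kb away with a fold of 3.80 and H3K27me3 in WT. At Il6 the nearest of 3 members, 23.6 kb away with a fold of 5.07, had H3K4me1 in WT and both H3K27ac and SMC1 in WTLPS. Tnf and Lta also shared their nearest member, 24.6 and 21.3 kb away, with a fold of 7.80 and H3K4me1 in all 4 conditions. Il6, Tnf and Lta were named after their values were seen.

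Single genes of the other immune groups showed the range. Relb, which encodes an NF-kB subunit, had 10 members, the nearest 9.02 kb away with a fold of 6.96. Of the myeloid factors, Cebpb, a C/EBP family gene, had 5 and Bcl6, a repressor gene, 4. The nearest members lay 6.14 and 4.83 kb away with folds of 7.81 and 9.85, and both had SMC1 in WTLPS. Gfi1 had 5, the nearest 5.13 kb away with a fold of 3.80 and both H3K27me3 and H3K4me1 in WT. Irf8, a determinant of dendritic cell lineages, had 4, the nearest 71.5 kb away with a fold of 8.19.

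In the remaining gene groups, members were 51.5 to 77.1% of the distal peaks absent in KO. Developmental transcription factors had 61 members (62.2% of their distal peaks absent in KO), with H3K27me3 at 21 (34.4%, beside 11.9% of all members) and H3K4me1 at 4. Sox10 had 7, Tbx3 and Tbx5 6 each and Six3 5, and the nearest member of Six3, 10.5 kb away with a fold of 3.74, carried H3K27me3. Olfactory receptor genes had 224 (58.0%), with H3K27me3 at 46 (20.5%), and keratins 47 (60.3%), with the mark at 13 (27.7%). Vomeronasal receptor genes had 76 (69.1%) and cytochrome P450 genes 157 (58.1%), with the mark at 10 (13.2%) and 13 (8.28%), near or below its share of all members. Zinc finger genes had 775 (59.7%), with H3K27me3 at 82 (10.6%) and H3K4me1 at 168 (21.7%). Immunoglobulin segments had 49 (65.3%) and T cell receptor segments 27 (77.1%), which are loci not rearranged in myeloid cells. Imprinted genes had 33 (57.9%), with H3K27me3 at 7 (21.2%). Ndn had 9 of them and Igf2 5. Clustered protocadherins, whose promoter choice depends on CTCF, had 6 (66.7%) and defensins 17 (51.5%).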

How the data were processed

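The 34 samples comprised 30 antibody samples, each with a peak list, and 4 inputs whose reads were not used here. The authors aligned paired reads to mm10 with BWA, filtered duplicates with Picard and called peaks with MACS2. The labels' processing notes name BWA 0.7.12, Picard 1.77, MACS2 2.1.2 and deepTools 3.1.3, whereas the study's methods name later versions of all 4. Whether input served as the control for peak calling is not given in the sources used here. Read totals were not used. The lists hold 504 to 96475 peaks, each deposited with a fold ratio over local background and with -log10 p-values and q-values. H3K27me3 and H3K4me1 lists are broad and hold region averages without a summit, and the CTCF and SMC1 lists end near a -log10 p of 7. The methods name 2 replicates per condition and peak calling on each of them, the study's reporting form says that replicates were merged and processed again, and which of these applies to the deposited lists is not settled. The H3K4me1 peak names point to another supplier's antibody than the label does.

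Promoters (within 2.5 kb of the 5' end of each gene's longest transcript), gene bodies and nearest starts came from 55413 annotated GRCm38 genes, and sequence from the GRCm38 RefSeq assembly. A shared base counted as overlap, so the part of the genome that a list covered understates random overlap with it. A motif matrix of 20 bases was built from CTCF peaks that persisted in KO, none of them members. Fragments at a summit were recovered as the whole number that gives both the deposited fold and p-value. Shares have 95% Wilson intervals, differences between classes Newcombe intervals, and differences at the same sites paired intervals, all for counting error only, and neighbouring sites are not independent. The overlap and interval steps were tested on simulated data with Python 3.11.15, pandas 2.3.3, numpy 2.4.6 and scipy 1.17.1, and figures were drawn with matplotlib 3.10.9.

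The members, gene groups and readouts were chosen with earlier results of these data known. Regions named were the 10 members with the highest WT CTCF -log10 q, the 5 highest among members overlapped by each of 6 other lists, and the 3 nearest each limit of the rule. Genes named were the 10 with the most members and, in each group, examples with the most members. Some items that these rules name are not reported here. Loci and windows named beyond these were picked for their values. Alternatives tried were a stronger part of each list, 50% coverage of the CTCF peak, a fixed window at the summit, a gap of 500 bp to partner peaks, a CTCF -log10 p of at least 10, all transcript starts, a common threshold for the broad lists, 1 mismatch and the matrix.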

Additional observations from a re-analysis of the deposited data

How the results depend on the processing

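Of 49 values recomputed for 9 results, 19 stayed inside the counting interval or, for the number of members, within 1.5 times the first value, and 30 did not. For 6 readouts (SMC1 in WTLPS, KO and KOLPS, CTCF in WTLPS, and H3K27me3 and H3K4me1 in WT) the sign of the difference between members and CTCF-cohesin sites was the same under the alternatives run. When only the stronger 50% of each looked-up list counted, SMC1 was at 0.434% of members in WTLPS, 0.0801% in KO and 0.0471% in KOLPS, CTCF in WTLPS at 14.8%, H3K27me3 at 7.68% and H3K4me1 at 12.8%. With at least 50% of the CTCF peak covered, these were 4.48%, 0.419%, 0.132%, 56.9%, 8.27% and 15.7%. With only 100 bases to either side of the summit looked up, SMC1 in KO was at 0.594%, CTCF in WTLPS at 61.2%, H3K27me3 at 9.74% and H3K4me1 at 17.3%. At a common lowest -log10 p, H3K27me3 was at 7.57% and H3K4me1 at 17.8%. With a CTCF -log10 p of at least 10, 10804 members were left, with SMC1 at 10.7% in WTLPS and 0.528% in KO, CTCF in WTLPS at 82.9%, H3K27me3 at 10.9%, H3K4me1 at 17.7% and the core at 26.6%. With no partner peak within 500 bp, H3K4me1 was at 17.4% and the core at 22.7%. With promoters from all transcript starts, 19049 members were left, the core was at 21.4% and 43.5% of members lay outside genes. With 1 mismatch the core was at 35.2%. Beyond what each alternative removes by construction, the cause was not tested. No paired analysis was possible because the labels give no replicate numbers and each antibody and condition had 1 list. List thresholds limit what a missing overlap shows, since a site without a listed peak may still hold signal below the threshold.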
